A study of Mus musculus with 17 samples.

Results

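The genes described here are 10 genes of the cartilage programme: the chondrocyte transcription factors Sox9, Sox5 and Sox6, and the cartilage matrix genes Acan, Comp, Matn3, Matn4, Hapln1, Chad and Cilp2. They were chosen by name, and all 10 were found by gene symbol among the 37576 genes of the larger table. The cells were mouse embryonic fibroblasts (MEFs) of C57bl/6 embryos at stage E13.5, and their RNA was read as 17 libraries in 2 sets. The immortalized set has 3 libraries each of Usp28 -/-, +/- and +/+ cells, and every cell carried pRetroSuper-shp19ARF, a retrovirus with a short hairpin RNA against p19ARF. The Ras set comprises 4 groups of 2 libraries each, all of which also carried the hairpin and pBabe-HRasG12V, an activated HRas. In the Ras set, +/+ cells with pWZL-USP28 (written Ras USP28 below), -/- cells with pWZL-GFP and +/- cells with pWZL-GFP are set against +/+ cells with pWZL-GFP. The Usp28 protein is a deubiquitinase and takes ubiquitin off its target proteins. The labels do not say how many embryos or cultures stand behind the libraries, so p-values measure only the spread between these libraries, which may be technical.

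Cartilage matrix is a network of collagen II fibrils filled with aggrecan, a very large proteoglycan whose chondroitin sulfate chains hold water. Sox9 is the transcription factor that starts and keeps up the chondrocyte programme, and Sox5 and Sox6 bind beside it and strengthen its action on matrix genes such as Col2a1 and Acan. Embryonic fibroblast cultures are mixtures of mesenchymal cells from the body wall and limbs, and they can hold cells on the way to cartilage.

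The deposited tables give 1 value per gene, group and comparison, and no value for a single library. Levels are given as RPM, the reads of a gene scaled to a depth of 1000000 reads in its group. Summed depth per group in units of 1000000 reads was 11.38 to 12.43 in the immortalized set and 11.36 to 13.95 in the Ras set, so that 1 read is worth 0.0717 to 0.0880 RPM. Folds are log2 values of the first group over the second. The standard error (SE) beside a fold is implied by the reads and by 1 dispersion shared by all genes of a comparison, so it is not a spread measured for that gene. A gene was tested at a mean level of at least 1 RPM and called higher or lower at a p-value, adjusted over all tested genes, under 0.05. Usp28 itself, summed over the whole gene, had 13.3 RPM in immortalized -/- and 9.96 RPM in +/- cells, against 16.5 RPM in +/+ cells, and neither difference was called. With HRas, Usp28 had 26.4 RPM with USP28, 14.8 RPM in -/- and 18.6 RPM in +/- cells, against 26.5 RPM in +/+ cells, and it was called lower in -/- cells (log2 fold −0.83, adjusted p = 0.00397). The labels do not say which part of Usp28 is missing, so the level over the whole gene does not check them.

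The chondrocyte label was looked at through 9 markers, of which Sox9, Acan, Matn3, Hapln1 and Chad are among the 10 genes themselves. They summed to 106 RPM in immortalized -/- and 115 RPM in +/- cells, against 291 RPM in +/+ cells. Under HRas they summed to 15.6 RPM with USP28, 32.0 RPM in -/- and 27.6 RPM in +/- cells, against 15.3 RPM in +/+ cells. Without those 5 genes the other 4 markers, almost all of it Col2a1, summed to 71.9 RPM in immortalized -/- and 71.1 RPM in +/- cells, against 227 RPM in +/+ cells, and to 2.37 RPM or less in every Ras group. The cartilage-restricted marker Snorc was listed at 0 in all 7 groups and Matn1 had at most 1 read in any. Fibroblast markers, led by collagen I and vimentin, summed to 27327 RPM in immortalized -/- and 29891 RPM in +/- cells, against 35830 RPM in +/+ cells. This places the cartilage genes as a low share of a fibroblast culture. In such bulk RNA, fewer cells of a type and less RNA per cell cannot be told apart. Tendon cells, which also make Comp, were followed by 4 markers that summed to 53.6 RPM in immortalized -/- and 26.8 RPM in +/- cells, against 84.2 RPM in +/+ cells. Scx and Tnmd were called lower in -/- cells, and Mkx and Thbs4 in +/- cells, beside 2.93% and 3.21% of all tested genes. Under HRas the 4 summed to 34.1 RPM with USP28, 25.6 RPM in -/- and 32.2 RPM in +/- cells, against 37.2 RPM in +/+ cells. There Scx was called lower in -/- cells (11.9 RPM against 24.9 RPM in +/+ cells), beside 12.4% of all tested genes. Glial and neural crest markers, whose cells also use Sox9, summed to 2.37 RPM in immortalized -/- and 3.30 RPM in +/- cells, against 3.35 RPM in +/+ cells, with Foxd3 listed at 0 in all 7 groups. The +/- groups also stood apart in markers of mesothelium, the lining of body cavities, whose 5 markers summed to 1554 RPM in immortalized +/- and 23.7 RPM in +/+ cells. The 5 epithelial markers summed to 262 RPM in immortalized +/- and 5.70 RPM in +/+ cells, and to 986 RPM in Ras +/- and 0.879 RPM in Ras +/+ cells. The sex-linked genes differed between groups as well: Xist had 0.215 RPM in Ras -/- and 336 RPM in Ras +/+ cells, and the Y-linked Eif2s3y had 22.4 RPM in Ras -/- and 0 RPM in Ras +/+ cells. In the immortalized set Eif2s3y had 14.9 RPM in -/- and 0 RPM in +/- cells, against 18.6 RPM in +/+ cells. Xist had 126 RPM in immortalized -/- and 296 RPM in +/- cells, against 89.7 RPM in +/+ cells. The part of these differences in the cartilage gene results was not tested.

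Starts of transcription from RefSeq (GRCm38.p6, 250 bases before to 50 after each start) were matched for 8 of the 10 genes, with 14 starts in all. The 4 windows printed here belong to Acan, Cilp2 and Hapln1, which were called lower together in immortalized +/- cells, and to Matn3, which was not lower in any comparison with +/+ cells. Each runs 5′ to 3′ on the strand of the gene, and capitals mark the SOX core ACAAT wherever it occurred, read on both strands. The Acan window is chr7:79052976-79053275 on the plus strand and the Cilp2 window is chr8:69887343-69887642 on the minus strand. The Hapln1 window is chr13:89540386-89540685 and the Matn3 window chr12:8947679-8947978, both on the plus strand.
Acan: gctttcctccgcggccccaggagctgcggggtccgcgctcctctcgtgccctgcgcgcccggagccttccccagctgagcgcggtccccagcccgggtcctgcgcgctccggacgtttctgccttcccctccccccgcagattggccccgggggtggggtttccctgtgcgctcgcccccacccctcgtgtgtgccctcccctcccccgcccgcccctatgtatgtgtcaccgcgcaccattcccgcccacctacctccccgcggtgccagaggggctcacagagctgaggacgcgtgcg
Cilp2: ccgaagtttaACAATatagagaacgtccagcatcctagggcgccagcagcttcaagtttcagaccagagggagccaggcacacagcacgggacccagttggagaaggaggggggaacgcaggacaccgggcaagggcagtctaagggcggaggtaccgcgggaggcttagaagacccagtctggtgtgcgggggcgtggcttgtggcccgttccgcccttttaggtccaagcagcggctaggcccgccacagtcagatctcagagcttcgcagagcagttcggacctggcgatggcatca
Hapln1: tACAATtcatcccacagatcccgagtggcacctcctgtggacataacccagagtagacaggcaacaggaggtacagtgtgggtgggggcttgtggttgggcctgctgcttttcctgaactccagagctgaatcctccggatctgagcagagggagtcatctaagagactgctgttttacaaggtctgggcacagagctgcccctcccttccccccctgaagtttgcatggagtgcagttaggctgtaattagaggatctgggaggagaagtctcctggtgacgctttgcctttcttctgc
Matn3: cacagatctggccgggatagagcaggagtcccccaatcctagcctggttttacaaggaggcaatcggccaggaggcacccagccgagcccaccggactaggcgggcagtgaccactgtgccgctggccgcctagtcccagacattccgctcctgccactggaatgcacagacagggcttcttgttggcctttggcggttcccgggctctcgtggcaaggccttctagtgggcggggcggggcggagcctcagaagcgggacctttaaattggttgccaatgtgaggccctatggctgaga
The SOX core stood once in the Cilp2 window and once in the Hapln1 window, and the letters did not occur in the Acan or Matn3 window. Over all starts of these genes, 6 of 14 windows held it, against 31.0% of the 32851 promoters in the table. Several of the 14 windows, with and without the core, are alternative starts of Sox6, so the windows are not separate genes. The Acan window ends at 79053275, before the start of Acan in the GENCODE annotation given below (79053483). The Hapln1 window, from 89540386, lies wholly after the start of its gene there (89539796). On the minus strand the Cilp2 window, from 69887642, likewise lies after the start of its gene (69887687). Both marked SOX cores are thus inside the annotated genes. A match of letters describes the window only and is not a measured binding site.

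In GENCODE M21 (GRCm38) Sox9 lies on chromosome 11 (112782224 to 112787760, plus strand, 4135 exon bases), Sox5 on chromosome 6 (143828425 to 144781977, minus strand) and Sox6 on chromosome 7 (115470872 to 116038796, minus strand). Acan lies on chromosome 7 (79053483 to 79115099), Comp on chromosome 8 (70373558 to 70382066), Matn3 on chromosome 12 (8947929 to 8972028) and Hapln1 on chromosome 13 (89539796 to 89611652), all on the plus strand. Chad lies on chromosome 11 (94565047 to 94569127, plus strand), Matn4 on chromosome 2 (164389393 to 164405160, minus strand) and Cilp2 on chromosome 8 (69880369 to 69887687, minus strand). The antisense gene Sox5os1 covers 9.25% of the exon bases of Sox5, and Rbpjl, on the other strand, covers 2.88% of those of Matn4. Whether the counting used strand is not given in the sources used here, so reads in these stretches cannot be assigned with certainty.

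**Figure D1:**
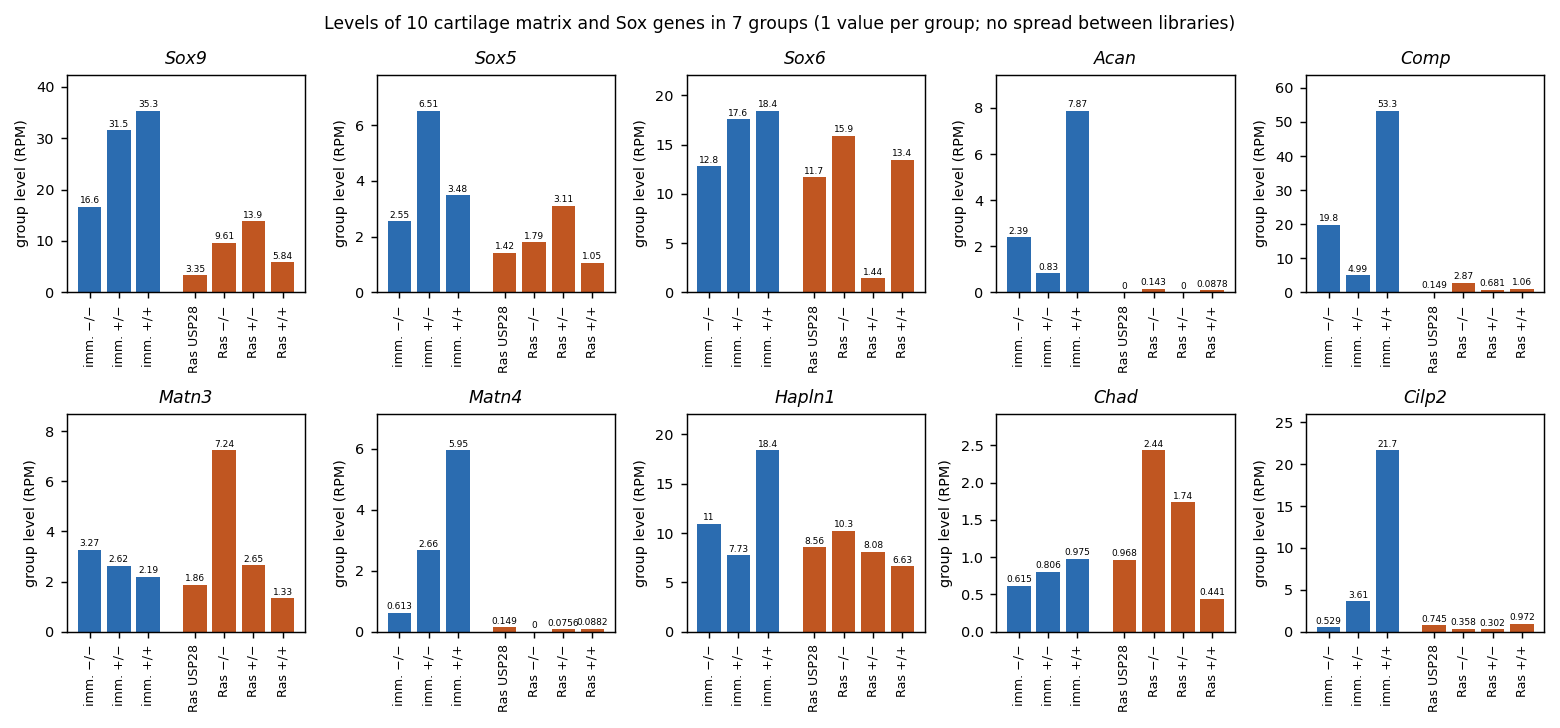
Level in RPM (linear axis from 0, its own scale for each gene) of the 10 genes in the 3 immortalized groups (blue) and the 4 Ras groups (orange); each bar is the 1 value of a group, so there are no error bars. In the immortalized set +/+ cells had the highest bar for Sox9, Sox6, Acan, Comp, Matn4, Hapln1, Chad and Cilp2, and in the Ras set Acan and Matn4 had 0.149 RPM or less in every group.

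In immortalized -/- cells, 5 of the 9 tested genes were lower than in +/+ cells and none was higher: Sox9, Acan, Comp, Matn4 and Cilp2. Over all tested genes 2.93% were called lower and 1.29% higher. The median log2 fold of the 10 genes was −0.92, against 0.07 over the 19900 genes with more than 3 reads. Matn4 and Cilp2 passed the filter on level through their +/+ values alone.

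Sox9 had 16.6 RPM in -/- and 31.5 RPM in +/- cells, against 35.3 RPM in +/+ cells. Its level in -/- cells stood below the levels of both other genotypes, which were close to each other. The fold of -/- over +/+ cells was −1.09 (SE 0.28, adjusted p = 0.00471), a call that was lost with a doubled dispersion (adjusted p = 0.158). The fold of +/- over +/+ cells was −0.17 (SE 0.39, adjusted p = 1, 95% interval −0.93 to 0.60). Its partners did not pass the test in -/- cells. Sox6 had 12.8 RPM in -/- and 17.6 RPM in +/- cells, against 18.4 RPM in +/+ cells, with a fold of −0.53 in -/- cells (adjusted p = 0.414, 95% interval −1.10 to 0.04). Sox5, the lowest of the 3 Sox genes per length in +/+ cells, had 2.55 RPM in -/- and 6.51 RPM in +/- cells, against 3.48 RPM in +/+ cells. Its folds were −0.45 in -/- cells (adjusted p = 0.740) and 0.91 in +/- cells (adjusted p = 0.341, unadjusted p = 0.0488).

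Of the aggregate-forming genes, Acan, the core protein of aggrecan, had 2.39 RPM in -/- and 0.830 RPM in +/- cells, against 7.87 RPM in +/+ cells. Both groups stood well below +/+ cells, with folds of −1.72 in -/- cells (SE 0.40, adjusted p = 0.00103) and −3.23 in +/- cells (SE 0.60, adjusted p = 1.56e-06). In +/- cells Acan rested on 10 reads and passed the filter through the +/+ value. Hapln1, the link protein that fixes aggrecan to hyaluronan, had 10.96 RPM in -/- and 7.73 RPM in +/- cells, against 18.4 RPM in +/+ cells. It was called in +/- cells (log2 fold −1.25, SE 0.42, adjusted p = 0.0426) and not in -/- cells (log2 fold −0.75, SE 0.29, adjusted p = 0.168). The call in +/- cells was lost without the filter on level (adjusted p = 0.0580).

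Comp, the pentameric cartilage oligomeric matrix protein that bridges collagen fibrils, had 19.8 RPM in -/- and 4.99 RPM in +/- cells, against 53.3 RPM in +/+ cells. Of the 10 genes it had the highest level in both -/- and +/+ cells, also per length, at 6.67 and 18.0 RPM per kb of exon. Its folds were −1.43 in -/- cells (SE 0.27, adjusted p = 2.59e-05) and −3.41 in +/- cells (SE 0.42, adjusted p = 1.15e-12). Cilp2, a secreted relative of the cartilage intermediate layer protein, had 0.529 RPM in -/- and 3.61 RPM in +/- cells, against 21.7 RPM in +/+ cells. The 6 reads in -/- cells stood against 266 in +/+ cells, a fold of −5.36 (SE 0.62, adjusted p = 1.05e-26), and the fold in +/- cells was −2.60 (SE 0.44, adjusted p = 4.21e-07).

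Matn3 and Matn4 are matrilins, adaptor proteins that link collagen fibrils and proteoglycans. Matn4 had 0.613 RPM in -/- and 2.66 RPM in +/- cells, against 5.95 RPM in +/+ cells. It was lower in -/- cells (log2 fold −3.28, SE 0.61, adjusted p = 4.67e-08), and the fold in +/- cells was −1.18 (SE 0.48, adjusted p = 0.156). Matn3 had 3.27 RPM in -/- and 2.62 RPM in +/- cells, against 2.19 RPM in +/+ cells, and was not called in either comparison (log2 folds 0.58 and 0.26, adjusted p = 0.664 and 1). Chad, chondroadherin, a leucine-rich cell-binding protein of cartilage, had 0.615 RPM in -/- and 0.806 RPM in +/- cells, against 0.975 RPM in +/+ cells, and was under the level for a test.

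In immortalized +/- cells, 4 of the 9 tested genes were lower than in +/+ cells: Acan, Comp, Hapln1 and Cilp2, beside 3.21% of all tested genes called lower. None of the 10 genes was higher, beside 5.04% of all tested genes. Their median log2 fold was −0.73, against 0.01 over the 20397 genes with more than 3 reads. Both comparisons share the +/+ libraries, so the values of +/+ cells enter both. All 5 mesothelial markers were called higher in these +/- cells, with Upk3b, a uroplakin of mesothelium, at 508 RPM in +/- and 1.95 RPM in +/+ cells. Of the 5 epithelial markers the keratins Krt8, Krt18 and Krt14 were called higher, with Krt8 at 71.8 RPM in +/- and 0.163 RPM in +/+ cells. Upk1b, Wt1, Lrrn4 and these keratins passed the filter on level through +/- cells alone, so they could only be called higher. The epithelial adhesion gene Cdh1 was not called (5.73 RPM in +/- and 5.22 RPM in +/+ cells), and Epcam had 3 reads in +/- and 0 in +/+ cells. Immortalized -/- cells had 13.9 RPM of summed mesothelial and 1.496 RPM of summed epithelial markers. Of the 6 fibroblast markers, 2 were called lower in immortalized -/- cells (Col3a1 and Pdgfra), beside 2.93% of all tested genes. In +/- cells 1 was called lower (Pdgfra), and none was higher in either group. Pdgfra, a receptor of mesenchymal cells, had 33.0 RPM in -/- and 27.2 RPM in +/- cells, against 120 RPM in +/+ cells.

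Set against each other, immortalized -/- and +/- cells differed in 2 of the 9 tested genes by an approximate Wald test. Comp was higher in -/- cells (log2 fold 1.98, SE 0.50, adjusted p = 0.00265), beside 1.41% of all tested genes called higher. Cilp2 was lower in -/- cells (log2 fold −2.67, SE 0.75, adjusted p = 0.0114), beside 3.33% of all tested genes called lower. Cilp2, with 6 reads in -/- cells, passed the filter on level through +/- cells alone, so that a call could have only this direction. Acan (log2 fold 1.48, adjusted p = 0.333), Matn4 (−2.04, adjusted p = 0.0949), Sox5 (−1.34, adjusted p = 0.193) and Sox9 (−0.92, adjusted p = 0.458) missed the threshold.

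**Figure D2:**
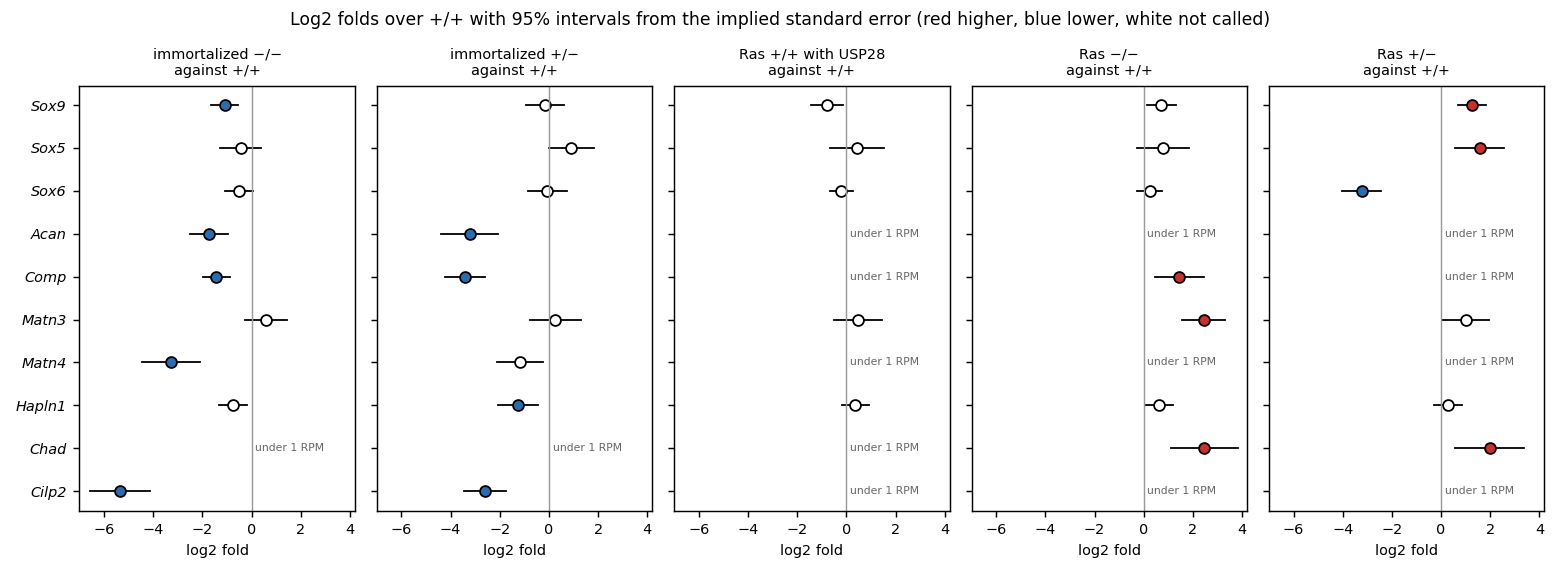
Log2 fold over +/+ cells of the same set (x axis) for each gene (rows) in the 5 comparisons with +/+; bars are 95% intervals from the implied SE, red marks higher, blue lower and white not called, and genes under 1 RPM are written as such. Calls in the 2 immortalized panels lie left of 0, and calls in the Ras -/- panel lie right of 0.

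In the Ras set the matrix genes were low: Acan and Matn4 had at most 2 reads in any group, and Cilp2 had 0.302 to 0.972 RPM. The 10 genes summed to 28.9 RPM with USP28, 50.6 RPM in -/- and 31.9 RPM in +/- cells, against 30.9 RPM in +/+ cells. In the immortalized set the sums were 70.1 RPM in -/- and 78.9 RPM in +/- cells, against 168 RPM in +/+ cells. The tables were normalized apart, so levels are to be read within a set, and no level was tested between the sets.

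In Ras -/- cells, 3 of the 7 tested genes were higher than in +/+ cells and none was lower: Comp, Matn3 and Chad. Calls were frequent in this comparison, with 15.2% of all tested genes higher and 12.4% lower. The median log2 fold of the 8 genes with more than 3 reads was 0.74, against 0.02 over the 19292 such genes. Chad passed the filter on level through -/- cells alone, so its direction was bound to be this one.

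Matn3 had 1.86 RPM with USP28, 7.24 RPM in -/- and 2.65 RPM in +/- cells, against 1.33 RPM in +/+ cells. Its level in -/- cells stood apart from the other 3 groups. The fold over +/+ was 2.44 in -/- cells (SE 0.44, adjusted p = 9.93e-08), 0.99 in +/- cells (adjusted p = 0.131) and 0.49 with USP28 (adjusted p = 1). Comp had 0.149 RPM with USP28, 2.87 RPM in -/- and 0.681 RPM in +/- cells, against 1.06 RPM in +/+ cells. Those levels rest on 2, 40, 9 and 12 reads in that order of groups. Comp was called in -/- cells (log2 fold 1.44, SE 0.51, adjusted p = 0.0288), but the authors' deposited table gives it an adjusted p of 0.0617. Chad had 0.968 RPM with USP28, 2.44 RPM in -/- and 1.74 RPM in +/- cells, against 0.441 RPM in +/+ cells, which is 5 reads. Its folds were 2.47 in -/- cells (SE 0.69, adjusted p = 0.000743) and 1.98 in +/- cells (SE 0.71, adjusted p = 0.0222).

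Hapln1 had 8.56 RPM with USP28, 10.3 RPM in -/- and 8.08 RPM in +/- cells, against 6.63 RPM in +/+ cells, a range of less than 1 log2 unit. None of its folds over +/+ was called: 0.37 with USP28, 0.63 in -/- cells (adjusted p = 0.107) and 0.29 in +/- cells (adjusted p = 0.529). Cilp2 had 0.745 RPM with USP28, 0.358 RPM in -/- and 0.302 RPM in +/- cells, against 0.972 RPM in +/+ cells, 11 reads or fewer in each. It was under the level for a test in this set. In markers, Ras -/- cells had 6.59 RPM of summed mesothelial markers, against 425 RPM in +/+ cells, nearly all of it Msln, mesothelin. Of 5 tested fibroblast markers, 3 were higher in Ras -/- cells and none lower, beside 15.2% of all tested genes called higher. They were Col1a1, Col3a1 and Pdgfra, with Pdgfra at 90.9 RPM against 21.6 RPM in +/+ cells (log2 fold 2.07, adjusted p = 3.47e-17).

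In Ras +/- cells, 3 of the 6 tested genes were higher than in +/+ cells, namely Sox9, Sox5 and Chad, and Sox6 was lower. The background was 17.5% of tested genes called higher and 16.7% called lower. The median log2 fold of the 8 genes with more than 3 reads was 0.64, against 0.02 over the 19158 such genes. As for Ras -/- cells, Chad passed the filter through the +/- value alone. The 3 Sox genes thus did not change in 1 direction in these cells.

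Sox9 had 3.35 RPM with USP28, 9.61 RPM in -/- and 13.9 RPM in +/- cells, against 5.84 RPM in +/+ cells. The fold over +/+ was 1.25 in +/- cells (SE 0.29, adjusted p = 0.000107) and 0.72 in -/- cells (SE 0.30, adjusted p = 0.0647). Sox5 had 1.42 RPM with USP28, 1.79 RPM in -/- and 3.11 RPM in +/- cells, against 1.05 RPM in +/+ cells. It was higher in +/- cells (log2 fold 1.57, SE 0.51, adjusted p = 0.00861), where 41 reads stood against 12. Sox6 had 11.7 RPM with USP28, 15.9 RPM in -/- and 1.44 RPM in +/- cells, against 13.4 RPM in +/+ cells. Ras +/- cells, with 19 reads against 153 to 222 in the other 3 groups, stood alone, and the fold over +/+ was −3.22 (SE 0.40, adjusted p = 1.02e-17). In Ras +/- cells 4 of the 5 mesothelial markers were also called higher, with Upk3b at 677 RPM in +/- and 0.264 RPM in +/+ cells, while Msln was called lower, at 209 RPM in +/- and 425 RPM in +/+ cells. The 4 higher markers passed the filter on level through +/- cells alone, so they could only be called higher. The keratin Krt8 had 465 RPM in +/- and 0.263 RPM in +/+ cells, and it too passed the filter through +/- cells alone.

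With USP28 added to Ras +/+ cells, none of the 5 tested genes was called by the deposited edgeR p, nor by the p rebuilt here from the reads, beside 1.09% of all tested genes called in either direction. The level of Usp28 itself was 26.4 RPM with USP28 and 26.5 RPM in +/+ cells (log2 fold −0.002). The added gene was thus not seen in these levels. At an unadjusted p under 0.05 (the deposited p, matched here by an exact negative binomial test) there was 1 gene, Sox9 (log2 fold −0.80, SE 0.33, p = 0.0215, adjusted p = 0.777, 95% interval −1.45 to −0.15). The other tested folds were 0.43 for Sox5 (95% interval −0.66 to 1.52), −0.20 for Sox6 (−0.68 to 0.28), 0.49 for Matn3 (−0.49 to 1.46) and 0.37 for Hapln1 (−0.18 to 0.92). Comp, under the level for a test, had 2 reads with USP28 against 12 in +/+ cells, a log2 ratio of −2.82 with a 95% counting interval of −6.03 to −0.66. Its deposited edgeR p was 0.00911 unadjusted, and the authors' adjusted p was 0.940. The median log2 fold of the 8 genes with more than 3 reads was 0.08, against 0.01 over the 18561 such genes.

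Between Ras -/- and +/- cells, 3 of the 7 tested genes differed by the Wald test, all higher in -/- cells, beside 12.9% of all tested genes called higher and 11.9% called lower. They were Sox6 (log2 fold 3.43, SE 0.45, adjusted p = 5.51e-13), Comp (2.01, SE 0.60, adjusted p = 0.00464) and Matn3 (1.44, SE 0.40, adjusted p = 0.00263). Comp, with 9 reads in +/- cells, passed the filter through -/- cells alone, so a call of it could only be higher. Between Ras cells with USP28 and Ras -/- cells, 3 of the 7 tested genes differed, all lower with USP28, beside 11.9% of all tested genes called lower and 7.41% called higher. These were Sox9 (log2 fold −1.51, SE 0.37, adjusted p = 0.000519), Matn3 (−1.94, SE 0.42, adjusted p = 6.14e-05) and Comp (−3.96, adjusted p = 0.000593). Comp had 2 reads with USP28 and 40 in -/- cells, with a 95% counting interval of −7.36 to −2.32, and it too passed the filter through -/- cells alone, so a call could only be lower.

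**Figure D3:**
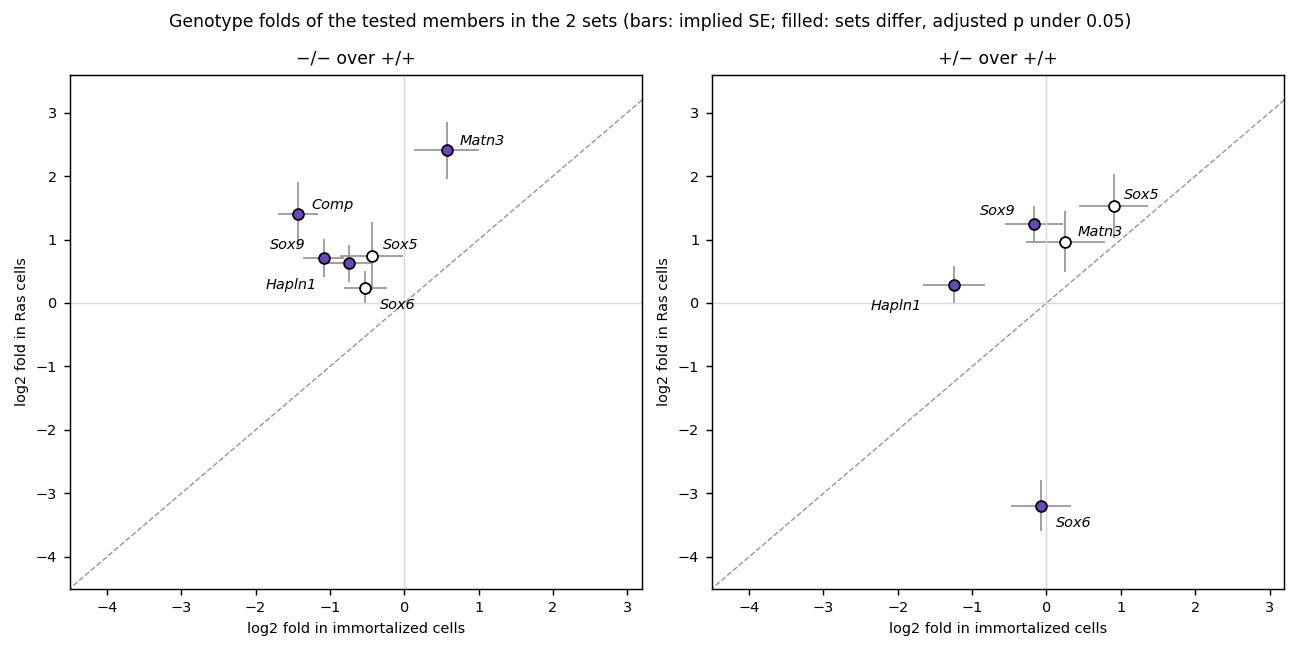
Log2 fold over +/+ cells in the immortalized set (x axis) and in the Ras set (y axis) for the genes tested in both, with 0.5 reads added and bars of 1 implied SE; the left panel shows -/- and the right panel +/- cells, and filled points mark genes whose folds differ between the sets. In the left panel all 6 genes lie above the dashed line of equal folds, and in the right panel Sox6 lies far below it.

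The folds of 1 genotype differed between the sets for several of the genes, tested as the Ras fold minus the immortalized fold with 0.5 reads added. For -/- cells, 4 of 6 tested genes had a higher fold in the Ras set, beside 11.5% of all tested genes, and none a lower one, beside 9.36%. Comp had a fold of 1.40 in Ras -/- cells and of −1.43 in immortalized -/- cells, a difference of 2.83 (SE 0.58, adjusted p = 1.67e-05). Sox9 had 0.71 in Ras -/- and −1.08 in immortalized -/- cells, a difference of 1.80 (SE 0.41, adjusted p = 0.000139). Hapln1 had 0.62 in Ras -/- and −0.74 in immortalized -/- cells, a difference of 1.37 (SE 0.41, adjusted p = 0.00729). Matn3 had 2.40 in Ras -/- and 0.57 in immortalized -/- cells, a difference of 1.83 (SE 0.62, adjusted p = 0.0202). The differences of Sox5 (1.18, adjusted p = 0.231) and Sox6 (0.77, adjusted p = 0.154) were not called.

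For +/- cells, 2 of 5 tested genes had a higher fold in the Ras set, beside 7.01% of all tested genes, and 1 had a lower one, beside 6.59%. Sox9 had a fold of 1.24 in Ras +/- and −0.17 in immortalized +/- cells, a difference of 1.41 (SE 0.49, adjusted p = 0.0323). Hapln1 had 0.28 in Ras +/- and −1.24 in immortalized +/- cells, a difference of 1.52 (SE 0.51, adjusted p = 0.0258). Sox6 had −3.19 in Ras +/- and −0.07 in immortalized +/- cells, a difference of −3.12 (SE 0.57, adjusted p = 1.43e-06). For the other 2 tested genes the differences were 0.62 for Sox5 and 0.71 for Matn3 and were not called.

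Per length, the order of the 10 genes changed with the group. Comp led in immortalized -/- cells (6.67 RPM per kb) and +/+ cells (18.0 RPM per kb), with Sox9 second in both (4.02 RPM per kb in -/- and 8.54 RPM per kb in +/+ cells). Sox9 led in immortalized +/- cells at 7.62 RPM per kb, ahead of Comp at 1.68 RPM per kb. Among Ras cells the leading gene was Hapln1 with USP28 (1.45 RPM per kb), Matn3 in -/- cells (2.40 RPM per kb, with Sox9 at 2.32) and Sox9 in +/- cells (3.35 RPM per kb) and in +/+ cells (1.41 RPM per kb). Levels of different genes in 1 group were not tested against each other.

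The 8 collagens of cartilage were counted in the same way. In immortalized -/- cells 5 of the 8 tested collagens were lower and none higher, beside 2.93% of all tested genes lower. In immortalized +/- cells 4 of 8 were lower and none higher, beside 3.21% of all tested genes lower. Col9a1 in both groups and Col9a2 in +/- cells passed the filter through +/+ cells alone. Col2a1, the main fibril collagen of cartilage, had 71.9 RPM in -/- and 70.8 RPM in +/- cells, against 224 RPM in +/+ cells (log2 folds −1.64 and −1.66, adjusted p = 6.59e-08 and 0.000537). Col11a2, a chain of the collagen XI that nucleates these fibrils, had 1.41 RPM in immortalized -/- and 6.55 RPM in +/- cells, against 6.50 RPM in +/+ cells, and was lower in -/- cells (log2 fold −2.20, adjusted p = 5.08e-05). Col10a1, the collagen of hypertrophic cartilage, had 109 RPM in -/- and 36.1 RPM in +/- cells, against 107 RPM in +/+ cells, and was lower in +/- cells (log2 fold −1.57, adjusted p = 0.00133). The median log2 fold of the 8 collagens was −1.31 in -/- and −1.21 in +/- cells, beside 0.07 and 0.01 over all genes.

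Among Ras cells 3 of 6 tested collagens were higher in -/- cells and 3 of 4 in +/- cells, and Col11a1 was lower in both. The shares over all tested genes were 15.2% higher and 12.4% lower for -/-, and 17.5% higher and 16.7% lower for +/- cells. Col10a1 and Col27a1 in -/- cells, and Col27a1 in +/- cells, passed the filter only through the group where they are high, so these calls could go only 1 way. Col10a1 had 575 reads in Ras -/- cells against 2 in +/+ cells, a log2 ratio of 7.88 with a 95% counting interval of 6.01 to 10.92. Col27a1, a fibrillar collagen of growing cartilage, had 2037 reads in Ras +/- and 123 in Ras -/- cells, against 2 in +/+ cells. Col2a1 had 0.596 RPM with USP28, 1.94 RPM in -/- and 1.21 RPM in +/- cells, against 0.705 RPM in +/+ cells, and was not called in -/- cells (log2 fold 1.46, adjusted p = 0.0558). Of the 8 collagens only 1, Col11a1, reached the level for a test with USP28. It was not called by the deposited edgeR p or by the rebuilt p, though its unadjusted p was under 0.05.

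**Figure D4:**
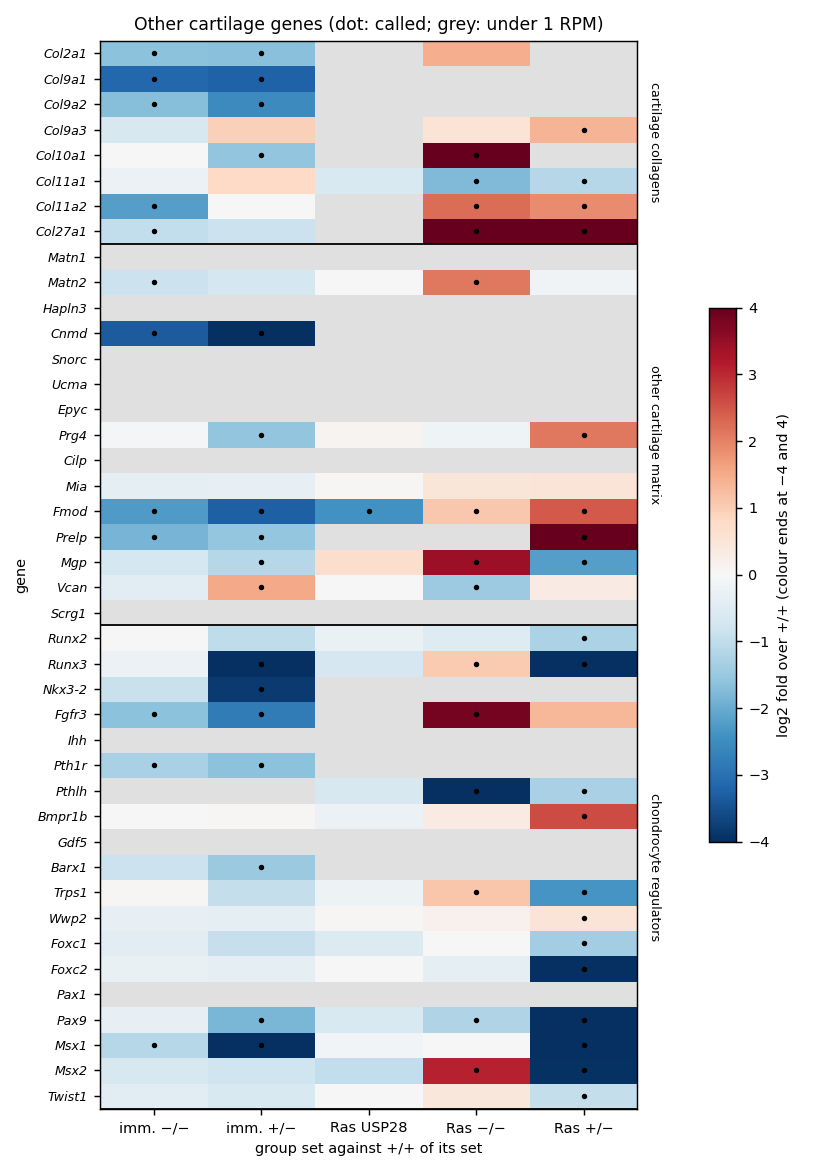
Log2 fold over +/+ cells of the same set (colour, cut at −4 and 4) for 3 further lists of cartilage genes (rows) in the 5 comparisons (columns); a dot marks a called gene, grey a gene under 1 RPM, and where 1 group had 0 reads the colour is the bound against 3 reads. The collagens are mostly blue in the 2 immortalized columns, and Runx3, Pax9, Msx1 and Msx2 are dark blue in the Ras +/- column.

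Of the other matrix genes of cartilage and joint, 4 of 8 tested were lower in immortalized -/- cells, none higher, and 5 of 8 were lower in +/- cells with 1 higher. Over all tested genes, 2.93% were lower and 1.29% higher in -/- cells, and 3.21% lower and 5.04% higher in +/- cells. Fmod, fibromodulin, a small proteoglycan that binds collagen fibrils, had 160 RPM in -/- and 79.6 RPM in +/- cells, against 771 RPM in +/+ cells (log2 folds −2.27 and −3.28, adjusted p = 4.02e-15 and 5.00e-13). Cnmd, chondromodulin, a glycoprotein of avascular cartilage, had 0 reads in -/- and 2 in +/- cells, against 33 in +/+ cells, at least 10.0-fold lower in -/- cells against a floor of 3 reads per group. It was tested through its +/+ value alone. In the Ras set 3 of 6 were higher and 1 lower in -/- cells, and 3 of 7 were higher and 1 lower in +/- cells, of which Prelp, with 2 reads in +/+ cells, could only be called higher. Over all tested genes, 15.2% were higher and 12.4% lower in -/- cells, and 17.5% higher and 16.7% lower in +/- cells. Mgp, the matrix Gla protein that holds back calcification, had 60.0 RPM in Ras -/- and 1.21 RPM in Ras +/- cells, against 5.61 RPM in +/+ cells (log2 folds 3.42 and −2.21). Fmod was also the 1 gene of 6 tested that was lower with USP28, at 1.19 RPM against 6.38 RPM in +/+ cells (log2 fold −2.42, adjusted p = 5.80e-07). Over all tested genes, 1.09% were called in either direction with USP28.

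Among 15 tested regulators of cartilage growth, 3 were lower in immortalized -/- cells and 7 in immortalized +/- cells, beside 2.93% and 3.21% of all tested genes, and none was higher in either. Fgfr3, the receptor that slows growth plate chondrocytes, had 10.7 RPM in -/- and 4.77 RPM in +/- cells, against 33.4 RPM in +/+ cells (log2 folds −1.64 and −2.81). Pth1r, the receptor for parathyroid hormone-related protein, had 6.06 RPM in -/- and 4.84 RPM in +/- cells, against 15.0 RPM in +/+ cells (log2 folds −1.31 and −1.64). In Ras -/- cells 4 of 13 were higher, beside 15.2% of all tested genes, and 2 lower, beside 12.4%, with Fgfr3 at 11.3 RPM against 0.793 RPM in +/+ cells (log2 fold 3.84). In Ras +/- cells 10 of 13 were lower, beside 16.7% of all tested genes, and 2 higher, beside 17.5%. The patterning factors Pax9, Msx1 and Msx2 had 0 reads there against 130, 121 and 40 reads in +/+ cells. These 3, Runx3 and Foxc2 in Ras +/- cells, Fgfr3 and Pthlh in Ras -/- cells, and Nkx3-2 in immortalized +/- cells were tested through 1 group alone, so their calls had a fixed direction. None of 12 tested was called with USP28 by the deposited edgeR p or by the rebuilt p, beside 1.09% of all tested genes. Of these 12, 5 had an unadjusted p under 0.05. The share of all tested genes at this unadjusted threshold was not counted, and the 1.09% refers to the adjusted one.

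Enzymes that make chondroitin sulfate, the sugar chains of aggrecan, were counted as a further list. Of 19 tested, 1 was lower in immortalized -/- cells (Csgalnact1, log2 fold −0.92, adjusted p = 0.0283), beside 2.93% of all tested genes. In immortalized +/- cells 1 was lower (Chst3, −2.16, adjusted p = 0.00240), beside 3.21% of all tested genes. Chst3 passed the filter on level through +/+ cells alone, so a call of it could only be lower. None was higher in either group, beside 1.29% and 5.04%. In the Ras set 3 of 18 were higher and 1 lower in -/- cells, and 3 of 15 were higher and 2 lower in +/- cells. The counts of higher genes stood near the shares of all tested genes called higher, 15.2% for -/- and 17.5% for +/- cells; the shares called lower were 12.4% and 16.7%. With USP28, 0 of 18 were called by the deposited or rebuilt edgeR p, beside 1.09% of all tested genes, and 0 had an unadjusted p under 0.05. Of the other Sox genes, 2 of 3 tested were lower in Ras -/- cells, beside 12.4% of all tested genes. In Ras +/- cells 3 of 5 were higher and 1 lower, beside 17.5% and 16.7%. Sox11, a factor of embryonic progenitors, had 265 reads in Ras +/- cells against 2 in +/+ cells. Sox2, a factor of stem and neural progenitor cells, had 0 reads in Ras -/- and in Ras +/- cells, against 223 in +/+ cells. In immortalized -/- cells Sox2 was the 1 of 6 called higher (29 reads against 6), beside 1.29%. Sox12 was lower in Ras -/- (9 reads) and higher in Ras +/- cells (2268 reads), against 535 in +/+ cells. Sox11 and Sox2, and Sox12 in Ras -/- cells, were tested through 1 group alone in these comparisons, which fixed their direction. Sox8, the close relative of Sox9, had 0.794 RPM in immortalized -/- and 0.987 RPM in +/- cells, against 1.87 RPM in +/+ cells, and neither difference was called.

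For the genes that reached 1 RPM in all 5 comparisons, the genes with the most similar 5 folds among 14494 were found by the root mean square difference of the log2 folds. Sox9 was closest to Tha1 (0.22), Sox5 to Creb3l2 (0.16), Matn3 to Bpgm (0.15) and Hapln1 to Gramd2 (0.12). Sox6 was closest to Gm11250 (0.14) and Atf5 (0.17), which had folds of −3.13 and −3.07 in Ras +/- cells. The 5 comparisons share +/+ libraries, so this likeness is a description.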

How the data were processed

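Per the labels' protocols, libraries of poly(A) RNA were made with either of 2 NEBNext kits, without a record of which library had which, and read on a Genome Analyzer IIx. Per the submitters' processing notes, the authors used CASAVA, FastQC, Bowtie 0.12.8, mm9 and edgeR. Per the file headers, the deposited tables give each gene a log2 concentration, a log2 ratio with +/+ on top and a p-value; the Ras table adds the authors' adjusted p-values. Here the sign of the ratios was turned, so that +/+ is below.

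Group levels in RPM were rebuilt from concentration and ratio. Steps of 1 read among low values gave each group's depth; of the values below 20 reads, 81.0% to 100% were whole to within 0.1 reads. No library totals were used. A single dispersion per comparison, fitted to the deposited p, gives a coefficient of variation of 12.5% to 32.0% between libraries, and z values rebuilt with it correlated with the deposited ones at r of 0.998 to 1.000. Deposited p-values were adjusted by Benjamini and Hochberg's method over genes with a mean of at least 1 RPM. Differences between comparisons were tested by an approximate Wald test with 0.5 reads added to each group, each group being given the dispersions of both comparisons. Floors of 3 reads and 95% counting intervals cover counting error only. Genes that vary more between libraries than the typical gene have errors that are too small.

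The 10 genes, the further lists and the tests were chosen with earlier results of these data known. All 10 genes are named in every comparison, and of each further list at most the 3 called genes with the largest fold per direction, with Col2a1 always; Sox8, Cdh1, Epcam, Col11a1 with USP28, and Col10a1, Fgfr3 and Pth1r in immortalized +/- cells were named after their values were seen. Other settings tried were the level filter, the threshold, a doubled dispersion, 1 read added, folds centred on the median gene and the authors' adjusted p. The steps were tested on simulated data. Python 3.11.15, numpy 2.4.6, pandas 2.3.3 and scipy 1.17.1 were used, with GENCODE M21 and RefSeq GRCm38.p6.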

Additional observations from a re-analysis of the deposited data

Results flagged for a closer look

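The fold of a genotype over +/+ differed between the Ras and the immortalized set by a test of the difference itself for these genes, each given as the Ras log2 fold minus the immortalized log2 fold. In -/- cells the difference was 2.83 for Comp, 1.83 for Matn3, 1.80 for Sox9 and 1.37 for Hapln1. In +/- cells it was 1.52 for Hapln1, 1.41 for Sox9 and −3.12 for Sox6. With a doubled dispersion the differences of Matn3 (adjusted p = 0.0717) and Hapln1 (0.0718) in -/- cells, and of Hapln1 (0.197) and Sox9 (0.241) in +/- cells, were no longer called, and at a threshold of 0.01 those of Matn3 in -/- cells and of Hapln1 and Sox9 in +/- cells were lost. The calls of Comp and Sox9 in -/- cells and of Sox6 in +/- cells remained under both settings. The sets share no library, but all groups of a set are compared with the same +/+ libraries, so the +/+ values of both sets enter every difference. The sets also differ in their +/+ cells beyond HRas: Xist had 336 RPM in Ras +/+ and 89.7 RPM in immortalized +/+ cells, and Eif2s3y had 0 RPM in Ras +/+ and 18.6 RPM in immortalized +/+ cells. Their part in the differences was not tested.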

How the results depend on the processing

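No direction reversed under any setting tried. With a filter of 5 RPM the number of called genes was 0 in place of 3 for Ras -/- and 2 in place of 4 for Ras +/- cells. It was then 1 in place of 2 for immortalized -/- against +/-, 1 in place of 3 for Ras -/- against +/-, 1 in place of 3 for USP28 against -/- and 2 in place of 4 for the -/- difference between the sets; fewer of the 10 genes were then tested. At an adjusted p under 0.01 it was 1 for immortalized -/- against +/- and 1 in place of 3 for the +/- difference between the sets. With a doubled dispersion these 2 counts were 0 and 1, and the -/- difference between the sets kept 2 genes, Sox9 and Comp. Sox9 in immortalized -/- cells then lost its call (adjusted p = 0.158), as did Hapln1 in immortalized +/- cells (0.388), Comp in Ras -/- cells (0.0522) and Comp (0.108) and Cilp2 (0.0874) between immortalized -/- and +/- cells. Of the calls of single genes, 7 were lost at 0.01 and 9 with the doubled dispersion; the cause was not tested. Adding 1 read, centring folds on the median gene and rebuilding the p changed no call of the 10 genes. No paired analysis was possible because the tables hold no values of single libraries, and leaving out a library could not be run for the same reason. Acan, Matn4 and Cilp2 had 0 to 11 reads per group in the Ras set, too few for a test there.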
